A study of Homo sapiens with 12 samples.

Results

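The genes described here build cholesterol and fatty acids, or set how much of that machinery is made. They are 32 genes chosen by name, among 29890 genes listed for the bladder carcinoma line 5637 and 58735 listed for the clear cell renal carcinoma line 786-O, and all 32 were found in both tables. Of them, 18 are enzymes of the sterol branch, 8 belong to the fatty acid branch, 5 regulate the SREBP transcription factors, and STARD4 carries sterols between membranes. RNA-seq was run on 12 libraries, 3 from 5637 with a short hairpin RNA against CBX7 (shCBX7), 3 from 5637 with a control hairpin (sh control), and the same 2 arms with 3 libraries each in 786-O. CBX7 is a chromobox subunit of Polycomb repressive complex 1, which keeps target genes silent. All arms were grown in RPMI-1640 medium with 10% fetal bovine serum, and no drug treatment is recorded. Each line is an established human tumour line, so every library of a line comes from a single cell source. The labels do not say how many hairpins were used or how long after silencing the cells were harvested, and the table columns name the silenced arms si. Levels are FPKM, fragments per kilobase of gene scaled to the depth of the library. In such bulk samples, fewer cells and less RNA per cell cannot be told apart. Changes are differences of log2(FPKM + 1), shCBX7 minus sh control, which understate the change of genes with low values.

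Cholesterol is made from acetyl-CoA through mevalonate, farnesyl diphosphate, squalene and lanosterol, while fatty acids are made from the same acetyl-CoA through malonyl-CoA and then elongated and desaturated. Both routes are switched on by the SREBP transcription factors, encoded by SREBF1 and SREBF2, which are made as membrane-bound precursors. SCAP escorts the precursors from the endoplasmic reticulum to the Golgi, where proteases release the active part, and the INSIG proteins hold SCAP back when sterols are plentiful. SREBF2 is best known for sterol genes and SREBF1 for fatty acid genes, and INSIG1 is itself a classic SREBP target. Clear cell renal carcinoma is named for cells that look empty because they store lipid.

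The comparison asks what happens to these genes when CBX7 is lowered in each line. Total counts implied by the FPKM steps ran from 19784638 to 32544602 per library in 5637 and from 16503790 to 18966972 in 786-O. In 786-O control library 1 the implied total, 16693519, was below the 16961808 reads recovered in listed genes. The 786-O figures are therefore scaling values of the FPKM and not exact read totals. The lowest and highest number of reads recovered for a member in a library were 32 and 11154 in 786-O. In 5637 they were 116 and 17357, over the 27 members whose reads could be recovered. Libraries of an arm correlated at 0.995 to 0.996 in 5637 and at 0.991 to 0.993 in 786-O. The lowest values within a 786-O arm were those of control library 1 (0.9909 and 0.9919). Without that library 6734 genes were called in 786-O, against 6736 with all libraries. Leaving out any other 786-O library gave 5704 to 6154. CBX7 itself was 2.19, 2.17 and 2.42 FPKM in the 5637 controls and 1.86, 1.80 and 1.97 FPKM after silencing, which left 83.3% of the control mean. The 786-O controls had 1.63, 1.75 and 1.49 FPKM and the silenced libraries 1.01, 0.892 and 1.07 FPKM, or 61.0% of the control mean. The silenced libraries were the lower ones in both lines, with limma log2 changes of -0.18 (SE 0.046, adjusted p = 0.0188) and -0.40 (SE 0.076, adjusted p = 0.00364). With a pseudocount of 0.1 the change in 786-O was -0.66, and with voom -0.70. The call in 5637 was lost without its control library 3 (-0.14, adjusted p = 0.0586) or its shCBX7 library 2 (-0.16, adjusted p = 0.0608). The 7 urothelial and squamous markers summed to 1979 to 1997 FPKM in 5637 controls and 2159 to 2187 FPKM after silencing, with 5 higher and 1 lower by the test. In 786-O they summed to 164 to 203 and 197 to 225 FPKM, nearly all of it KRT19, and KRT5 was at 0. The 6 renal markers summed to 494 to 498 FPKM in 786-O controls and 452 to 493 FPKM after silencing, and 7.04 to 8.33 FPKM over the 5637 libraries. In 786-O 3 of the 6 fell, PAX8 (37.8 to 30.3 FPKM), CDH6 (13.4 to 7.47 FPKM) and CDH16 (1.01 to 0.306 FPKM). The part of these shifts in the changes of the lipid genes was not tested. Fibroblast markers summed to 14.1 to 14.6 FPKM in 5637 controls and 11.97 to 12.7 FPKM after silencing. Nearly all of that was COL1A1 (14.4 to 12.3 FPKM), with COL3A1 and DCN near 0. Leukocyte, endothelial and adipocyte markers summed to under 2 FPKM in every library. The labels do not say whether the libraries of an arm are separate cultures. A p-value here sets the difference between arms against the scatter of libraries within arms. That scatter may be technical only, so a p-value need not hold for separate cultures.

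In 786-O cells most genes of lipid synthesis were lower after silencing of CBX7, and the INSIG genes, which restrain SREBP, were higher. Of the 32 genes, 24 passed limma's adjusted p of 0.05 on the lower side and 2 on the higher side, where 26.2% and 24.7% of all 13220 tested genes did so. The median change was -0.52, against -0.01 over all tested genes. All 8 genes of the fatty acid branch and 14 of the 18 sterol enzymes fell, with medians of -0.65 and -0.51. The arms did not overlap for 28 of the 32 genes (26 lower and 2 higher), compared with 60.3% of all tested genes (31.0% lower and 29.2% higher). In 5637 cells the changes were smaller and went both ways: 12 genes fell and 5 rose, where 20.2% and 24.4% of 12689 tested genes passed. The median there was -0.07, against 0.01 over all tested genes. The sterol branch in 5637 held 6 genes that fell and 2 that rose, the fatty acid branch 2 that fell and 3 that rose, and the regulators 3 that fell and none that rose. The arms did not overlap for 21 of the 32 genes (14 lower and 7 higher), compared with 56.4% of all tested genes (25.7% lower and 30.7% higher), and the 17 calls, 53.1% of the genes, stand beside a background of 44.5%.

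**Figure D1:**
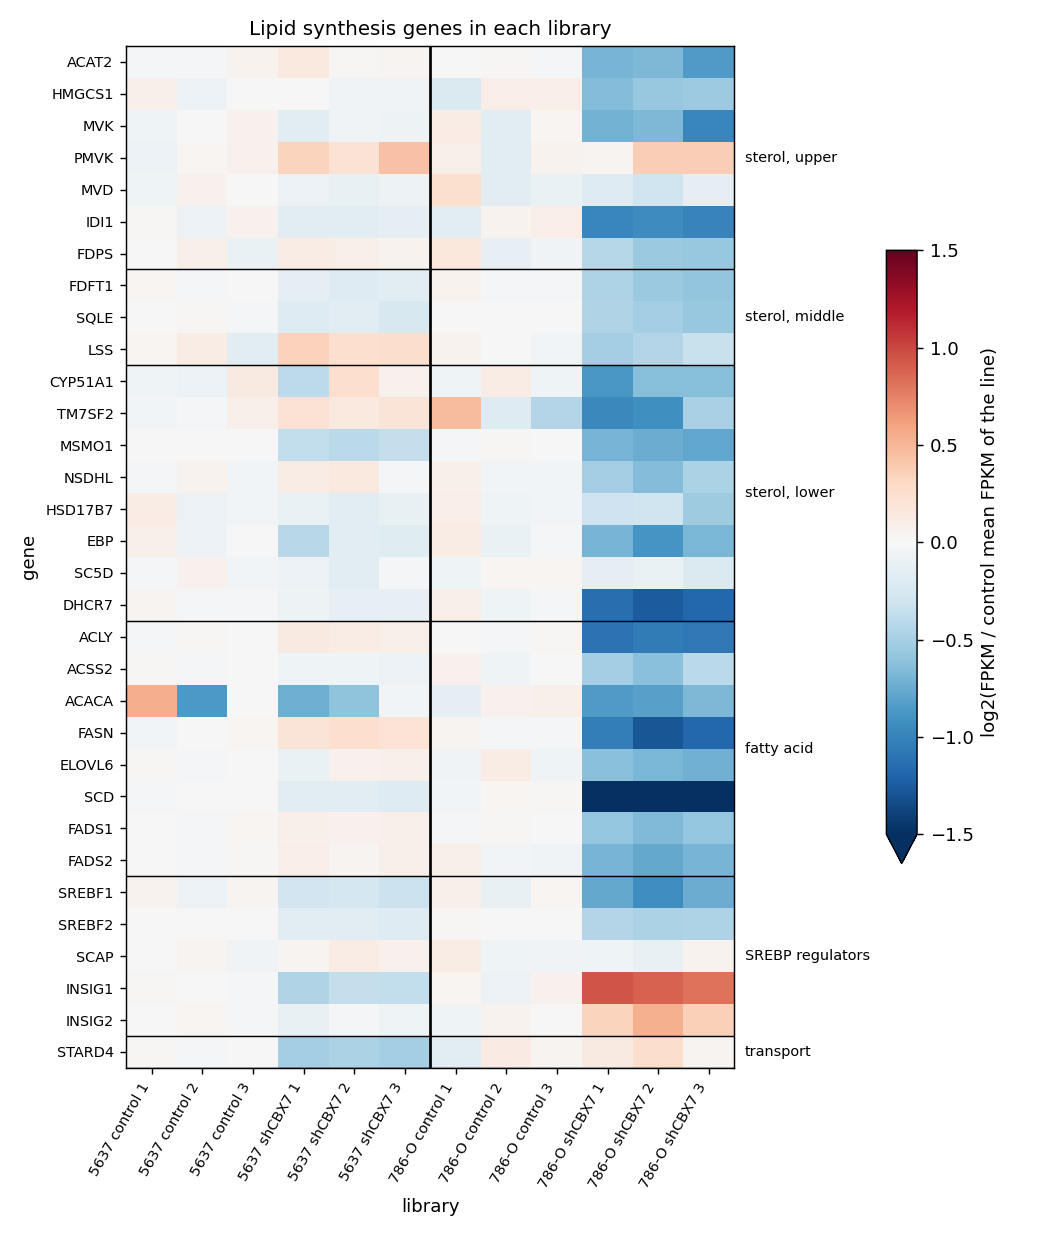
Heat map of the 32 genes (vertical axis, grouped by branch) in the 12 libraries (horizontal axis), coloured by log2 of FPKM over the mean FPKM of the control libraries of that line, with the scale ending at -1.5 and 1.5, which SCD in silenced 786-O passes. In 786-O the shCBX7 columns are blue for nearly all enzymes and red for INSIG1 and INSIG2, while in 5637 the colours are paler and mixed, and the control columns of ACACA differ among themselves.

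The regulators come first, since they act upstream of both branches. SREBF2, the SREBP most tied to cholesterol synthesis, was 30.7, 30.04 and 30.04 FPKM in the 786-O controls and 22.4, 21.9 and 22.0 FPKM after silencing. All 3 silenced libraries lay below all controls, which limma put at -0.44 in log2 (SE 0.040, adjusted p = 1.03e-04). In 5637 SREBF2 was 39.0, 39.1 and 39.5 FPKM in controls and 34.9, 34.8 and 34.2 FPKM after silencing, again without overlap. Its change there was -0.17 (SE 0.018, limma adjusted p = 4.46e-04). SREBF1, which encodes the SREBP tied to fatty acid synthesis, fell in both lines too. It was 10.6, 9.29 and 10.3 FPKM in 786-O controls and 5.92, 5.26 and 6.02 FPKM after silencing, which left 57.0% of the control mean (-0.72, SE 0.070, limma adjusted p = 1.38e-04). In 5637 it was 6.44, 5.85 and 6.38 FPKM in controls and 5.09, 5.16 and 4.97 FPKM after silencing, or 81.6% of the control mean (-0.25, SE 0.038, limma adjusted p = 0.00219). Neither SREBF gene overlapped between arms in either line, and both fell further in 786-O.

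INSIG1, the anchor that keeps SCAP in the endoplasmic reticulum, moved in opposite directions in the 2 lines. In 786-O it was 42.1, 38.8 and 43.2 FPKM in controls and 79.2, 76.3 and 72.6 FPKM after silencing, 184% of the control mean (0.86, SE 0.057, limma adjusted p = 2.16e-05). In 5637 it was 33.1, 32.6 and 32.3 FPKM in controls and 23.9, 25.4 and 25.3 FPKM after silencing, 76.1% of the control mean (-0.38, SE 0.028, limma adjusted p = 1.31e-04). The arms were apart in both lines, and among the 32 genes INSIG1 had the largest rise in 786-O and the largest fall of a regulator in 5637. INSIG2, its paralogue with the same anchoring role, was 8.70, 9.45 and 9.10 FPKM in 786-O controls and 11.4, 13.2 and 11.6 FPKM after silencing (0.37, SE 0.065, limma adjusted p = 0.00237). In 5637 INSIG2 was 22.2, 22.7 and 21.7 FPKM against 20.6, 21.7 and 21.3 FPKM, and the arms overlapped (-0.06, 95% interval -0.1274 to 0.0011, limma adjusted p = 0.0993). With median centring that difference in 5637 passed the test on the lower side. SCAP, the escort itself, passed in neither line: its change was -0.04 in 786-O (95% interval -0.19 to 0.12, limma adjusted p = 0.671) and 0.07 in 5637 (95% interval -0.01 to 0.14, limma adjusted p = 0.122), and its arms overlapped in both.

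STARD4, a soluble carrier that moves cholesterol between membranes and is itself an SREBP target, had the largest fall of the 32 genes in 5637. It was 8.42, 8.23 and 8.25 FPKM in controls and 5.82, 5.97 and 5.81 FPKM after silencing, 70.7% of the control mean (-0.44, SE 0.024, limma adjusted p = 5.74e-05). In 786-O it was 4.85, 5.94 and 5.61 FPKM in controls and 6.02, 6.56 and 5.63 FPKM after silencing, with overlapping arms (0.13, 95% interval -0.06 to 0.32, limma adjusted p = 0.218).

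Since these genes share a regulator, the bases ahead of 4 of them are shown: SREBF2 as the factor, INSIG1 as the gene with the highest rise in 786-O, STARD4 as the deepest fall in 5637, and SCD as the deepest fall in 786-O. The bases lie upstream of the gene's interval and are read 5′ to 3′ on the gene's strand from RefSeq (GRCh38.p14). Capitals mark TCACNCCAC, a string of the sterol regulatory element, and CCAAT, the string bound by NF-Y, each on either strand (ATTGG is CCAAT read from the other strand).
SREBF2, chr22:41832855-41833078, plus strand: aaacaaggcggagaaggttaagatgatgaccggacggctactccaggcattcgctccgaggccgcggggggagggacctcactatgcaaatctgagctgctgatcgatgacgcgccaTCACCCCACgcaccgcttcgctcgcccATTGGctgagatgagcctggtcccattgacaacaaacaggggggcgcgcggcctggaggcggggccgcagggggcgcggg
INSIG1, chr7:155297628-155297775, plus strand: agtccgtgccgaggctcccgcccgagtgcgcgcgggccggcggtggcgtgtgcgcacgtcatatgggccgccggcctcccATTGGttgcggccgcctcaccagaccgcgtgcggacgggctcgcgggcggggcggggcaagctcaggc
SCD, chr10:100346983-100347123, plus strand: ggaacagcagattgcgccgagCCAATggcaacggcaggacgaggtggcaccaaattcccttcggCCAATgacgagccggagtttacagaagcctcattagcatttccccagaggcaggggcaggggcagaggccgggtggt
STARD4, chr5:111512591-111512785, minus strand: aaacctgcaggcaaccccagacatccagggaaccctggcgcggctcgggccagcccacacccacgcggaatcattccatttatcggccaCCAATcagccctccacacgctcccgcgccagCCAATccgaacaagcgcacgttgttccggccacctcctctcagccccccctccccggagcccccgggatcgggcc
The SREBF2 stretch holds 1 match to TCACNCCAC and 1 to CCAAT, the INSIG1 stretch 1 to CCAAT, and the SCD and STARD4 stretches 2 to CCAAT each. Over the 250 bases ahead of each RefSeq start of a gene, 28 of the 32 genes had a sequence in the table, and FDFT1, SQLE, ACAT2 and FASN did not. A gene counted as matching if any of its listed starts had the string, and the number of starts per gene was not matched. A match to CCAAT was present for 20 of the 28 (71.4%), against 37.0% of all 27305 genes in the table and 42.0% of the 9204 that were tested in 786-O. The GC box GGGCGG was present for 27 of 28 (96.4%), against 46.2% and 75.8%, and the E-box CACGTG for 3 (10.7%), against 7.73% and 11.3%. TCACNCCAC was found ahead of SREBF2 alone among the 28, where 1.09% of all genes and 1.20% of tested genes had it. Other forms of the sterol regulatory element, and bases outside these 250, were not searched. A gene without this string may therefore still have such an element. None of these 4 strings contains another, each was sought on both strands, and a match is a description of the letters.

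**Figure D2:**
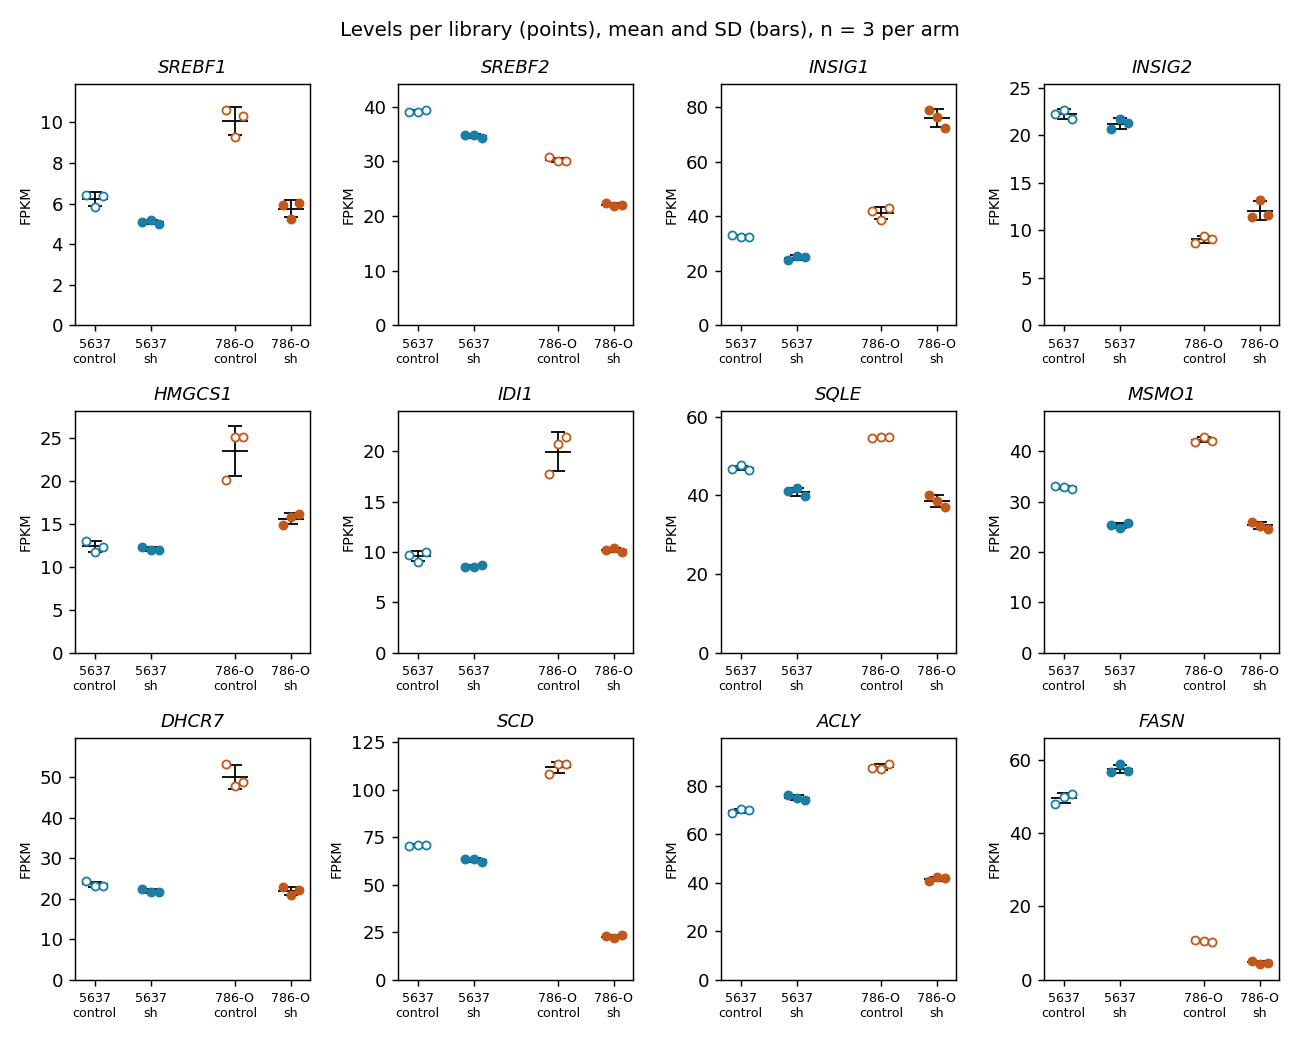
FPKM (vertical axes, from 0) of 12 of the genes in each library of both lines, with open points for sh control, filled points for shCBX7, and bars for the mean and SD of 3 libraries. SREBF1, SREBF2, MSMO1 and SCD are lower after silencing in both lines, INSIG1 and FASN go opposite ways in 5637 and 786-O, and HMGCS1 overlaps between arms in 5637.

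The fatty acid branch held the steepest single fall in 786-O, that of SCD, and had the lower median (-0.65, against -0.51 in the sterol branch). The sterol enzyme DHCR7 (-1.15) fell further than every fatty acid gene other than SCD. SCD, the desaturase that makes oleate from stearate, was 108, 113 and 113 FPKM in controls and 22.8, 21.8 and 23.4 FPKM after silencing, 20.3% of the control mean (-2.25, SE 0.046, limma adjusted p = 2.25e-07). No other gene of the 32 fell as far, and the arms were far apart. ACLY, which splits citrate to give cytosolic acetyl-CoA, was 87.3, 86.9 and 89.0 FPKM in controls and 40.8, 42.5 and 41.8 FPKM after silencing (-1.06, SE 0.040, limma adjusted p = 2.14e-06). FASN, the fatty acid synthase, was 10.9, 10.5 and 10.4 FPKM in controls and 5.16, 4.35 and 4.70 FPKM after silencing (-1.02, SE 0.064, limma adjusted p = 1.71e-05). Both enzymes thus had under 50% of the control level left, 47.5% for ACLY and 44.6% for FASN. ACACA, the carboxylase that makes malonyl-CoA, was 3.78, 4.38 and 4.40 FPKM in controls and 2.33, 2.37 and 2.63 FPKM after silencing (-0.59, limma adjusted p = 4.19e-04). The remaining members, the acetate-activating ACSS2, the elongase ELOVL6 and the desaturases FADS1 and FADS2, kept 60.8% to 70.2% of the control mean, with changes of -0.43 to -0.69. FADS1 and FADS2 overlap on opposite strands of chromosome 11 (FADS1 61799625 to 61829318, FADS2 61792980 to 61867354, GRCh38), and FADS2 also overlaps FEN1 on its own strand, which fell by 0.32 in 786-O. No source used here says whether counting used strand, so whether overlapping genes share reads is not known. Overlap was taken between whole gene intervals, and exons were not compared. In all, 9 of the 32 genes overlap a gene of at least 1 FPKM in 786-O.

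In 5637 the same branch did not move together. FASN was 48.1, 49.8 and 50.7 FPKM in controls and 56.7, 58.9 and 57.0 FPKM after silencing, so every silenced library was higher (0.21, SE 0.026, limma adjusted p = 9.33e-04). ACLY was 68.9, 70.2 and 69.8 FPKM in controls and 76.2, 75.0 and 74.1 FPKM after silencing, also without overlap (0.11, SE 0.019, limma adjusted p = 0.00402). SCD went the other way, from 70.1, 71.0 and 71.1 FPKM to 63.5, 63.4 and 61.8 FPKM (-0.17, SE 0.019, limma adjusted p = 6.47e-04). So the synthase and the citrate enzyme rose by 16.1% and 7.86% while the desaturase fell by 11.1%. FADS1 rose by 5.05% (0.07, limma adjusted p = 0.0367) and ACSS2 fell by 4.89% (-0.07, limma adjusted p = 0.0496). Those last calls were frail: FADS1 kept its call in 5 of 13 alternatives and ACSS2 in 6 of 13. ELOVL6 (0.01, 95% interval -0.10 to 0.12) and FADS2 (0.06, 95% interval 0.0023 to 0.1244) did not pass, and the sign of ELOVL6 turned under median centring and quantile normalization. ACACA was 1.53, 0.578 and 1.04 FPKM in controls and 0.630, 0.689 and 1.02 FPKM after silencing. Its control libraries differed more from each other than the arms did, and no change could be read from them (-0.18, 95% interval -0.59 to 0.22, limma adjusted p = 0.416).

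In the upper part of the sterol branch, from acetyl-CoA to farnesyl diphosphate, 5 of 7 enzymes fell in 786-O, against 26.2% of all tested genes. IDI1, which isomerizes isopentenyl diphosphate, was 17.8, 20.7 and 21.4 FPKM in controls and 10.2, 10.4 and 10.0 FPKM after silencing, 51.0% of the control mean (-0.90, SE 0.072, limma adjusted p = 4.97e-05). The cytosolic thiolase ACAT2 was 27.5, 27.9 and 27.3 FPKM in controls and 17.1, 17.3 and 15.3 FPKM after silencing (-0.70, limma adjusted p = 4.84e-05). HMGCS1, the synthase of the next step, was 20.1, 25.1 and 25.1 FPKM in controls and 14.9, 15.8 and 16.1 FPKM after silencing (-0.55, limma adjusted p = 0.00155). In each of these 3 genes the silenced libraries lay below all controls. MVK, mevalonate kinase, kept 58.1% of its control mean (-0.65, limma adjusted p = 7.31e-04) and FDPS, farnesyl diphosphate synthase, 69.9% (-0.50, limma adjusted p = 0.00136). MVK overlaps MMAB and ACAT2 overlaps TCP1, each on the opposite strand, and both partners also fell in 786-O (-0.61 and -0.43).

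PMVK and MVD, the kinase and decarboxylase that follow mevalonate kinase, did not follow the others. PMVK was 35.2, 29.6 and 34.2 FPKM in 786-O controls and 34.0, 42.5 and 42.6 FPKM after silencing, with silenced library 1 inside the control range (0.26, SE 0.103, limma adjusted p = 0.0724). Without that library, or with voom on recovered reads, PMVK passed on the higher side. In 5637 PMVK was 10.4, 11.3 and 11.6 FPKM in controls and 14.1, 12.9 and 15.03 FPKM after silencing, 126% of the control mean (0.31, SE 0.058, limma adjusted p = 0.00513). It had the largest rise of the 32 genes there. MVD was 25.4, 19.1 and 20.2 FPKM in 786-O controls and 18.9, 17.5 and 19.5 FPKM after silencing, and the arms overlapped (-0.19, 95% interval -0.43 to 0.05, limma adjusted p = 0.157). With voom on recovered reads it passed there on the lower side. In 5637 the upper part held 1 other call, a fall of IDI1 by 10.3% (-0.14, SE 0.037, limma adjusted p = 0.0189), which did not pass without control library 1 or 3 or shCBX7 library 1 or 2 (adjusted p up to 0.0586). HMGCS1 in 5637 was 13.05, 11.66 and 12.35 FPKM in controls and 12.3, 11.9 and 11.9 FPKM after silencing, with full overlap (-0.03, 95% interval -0.13 to 0.06). ACAT2, MVK, MVD and FDPS had changes of -0.08 to 0.08 there and did not pass, though MVD passed on the lower side without control library 1 and FDPS on the higher side without control library 2.

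Enzymes that join farnesyl diphosphate into squalene and close it into lanosterol fell in all 3 cases in 786-O, against 26.2% of all tested genes. Squalene epoxidase, SQLE, was 54.6, 54.9 and 54.8 FPKM in controls and 40.0, 38.6 and 37.0 FPKM after silencing (-0.50, SE 0.044, limma adjusted p = 8.73e-05). In 5637 it was 46.8, 47.6 and 46.5 FPKM in controls and 41.0, 41.8 and 39.8 FPKM after silencing (-0.20, SE 0.024, limma adjusted p = 7.88e-04). The arms were apart in both lines. FDFT1, squalene synthase, fell likewise in both, to 68.8% of the control mean in 786-O (-0.52, limma adjusted p = 1.41e-04) and to 89.1% in 5637 (-0.16, limma adjusted p = 0.00113). LSS, the cyclase that forms lanosterol, kept 74.5% in 786-O (-0.39, limma adjusted p = 0.0011). In 5637 LSS was the scarcest of the 32 genes, at 0.728, 0.770 and 0.639 FPKM in controls and 0.908, 0.847 and 0.858 FPKM after silencing. Those arms did not overlap, but the change did not pass (0.13, 95% interval 0.0038 to 0.2527, limma adjusted p = 0.0872); it passed with voom on recovered reads and without the mean-variance trend.

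From lanosterol to cholesterol, 6 of 8 enzymes fell in 786-O, against 26.2% of all tested genes. The arms did not overlap for any of the 8, all lower, against 60.3% of all tested genes (31.0% lower). DHCR7, the reductase of the last step of one route, was 53.3, 47.8 and 48.8 FPKM in controls and 22.9, 21.0 and 22.1 FPKM after silencing, 44.0% of the control mean (-1.15, SE 0.057, limma adjusted p = 6.81e-06). That was the largest fall of a sterol enzyme. DHCR7 overlaps the antisense gene AP002387.1, which averaged 10.6 FPKM and did not pass in 786-O (0.13, limma adjusted p = 0.302). The sterol isomerase EBP was 79.2, 68.7 and 72.8 FPKM in controls and 45.5, 40.0 and 45.9 FPKM after silencing (-0.74, SE 0.074, limma adjusted p = 1.51e-04). MSMO1, a C4 methyl oxidase, was 41.9, 42.9 and 42.1 FPKM in controls and 26.03, 25.2 and 24.6 FPKM after silencing (-0.72, SE 0.042, limma adjusted p = 1.36e-05). Each of the 3 had an unbroken gap between arms. NSDHL, which works with MSMO1 on the C4 methyl groups, kept 68.5% of the control mean (-0.52), the demethylase CYP51A1 61.1% (-0.46, and -0.71 with voom on recovered reads) and the ketoreductase HSD17B7 76.9% (-0.31, limma adjusted p = 0.00963). HSD17B7 has a pseudogene copy, HSD17B7P2, that averaged 1.02 FPKM in 786-O, so its reads are less certain. TM7SF2, a sterol reductase, was 1.48, 0.928 and 0.782 FPKM in controls and 0.541, 0.563 and 0.757 FPKM after silencing, from as few as 32 reads, and did not pass (-0.34, 95% interval -0.65 to -0.02, limma adjusted p = 0.0717). It also overlaps VPS51 on its own strand, a gene that averaged 10.9 FPKM. With voom on recovered reads, or without control library 3, it passed on the lower side. The desaturase SC5D did not pass either (-0.13, 95% interval -0.2561 to -0.0003, limma adjusted p = 0.0869).

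In 5637 this last stretch was led by MSMO1, which was 33.0, 32.9 and 32.5 FPKM in controls and 25.4, 24.8 and 25.7 FPKM after silencing, 77.1% of the control mean (-0.36, SE 0.021, limma adjusted p = 6.02e-05). EBP was 17.1, 15.2 and 16.3 FPKM in controls and 12.1, 14.5 and 14.3 FPKM after silencing (-0.24, SE 0.069, limma adjusted p = 0.0273). DHCR7 was 24.3, 23.1 and 23.2 FPKM in controls and 22.3, 21.7 and 21.6 FPKM after silencing, a fall of 7.12% (-0.10, SE 0.026, limma adjusted p = 0.0182). In all 3 genes the silenced libraries were the lower ones, but EBP lost its call without control library 1, without control library 3 or without the filter on low values, and DHCR7 lost its call without shCBX7 library 2 or 3. TM7SF2 rose, from 4.49, 4.52 and 4.86 FPKM to 5.35, 5.12 and 5.29 FPKM (0.15, SE 0.036, limma adjusted p = 0.0116). The other 4 enzymes, CYP51A1, NSDHL, HSD17B7 and SC5D, had changes of -0.10 to 0.07 and did not pass, though NSDHL passed on the higher side without shCBX7 library 3.

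**Figure D3:**
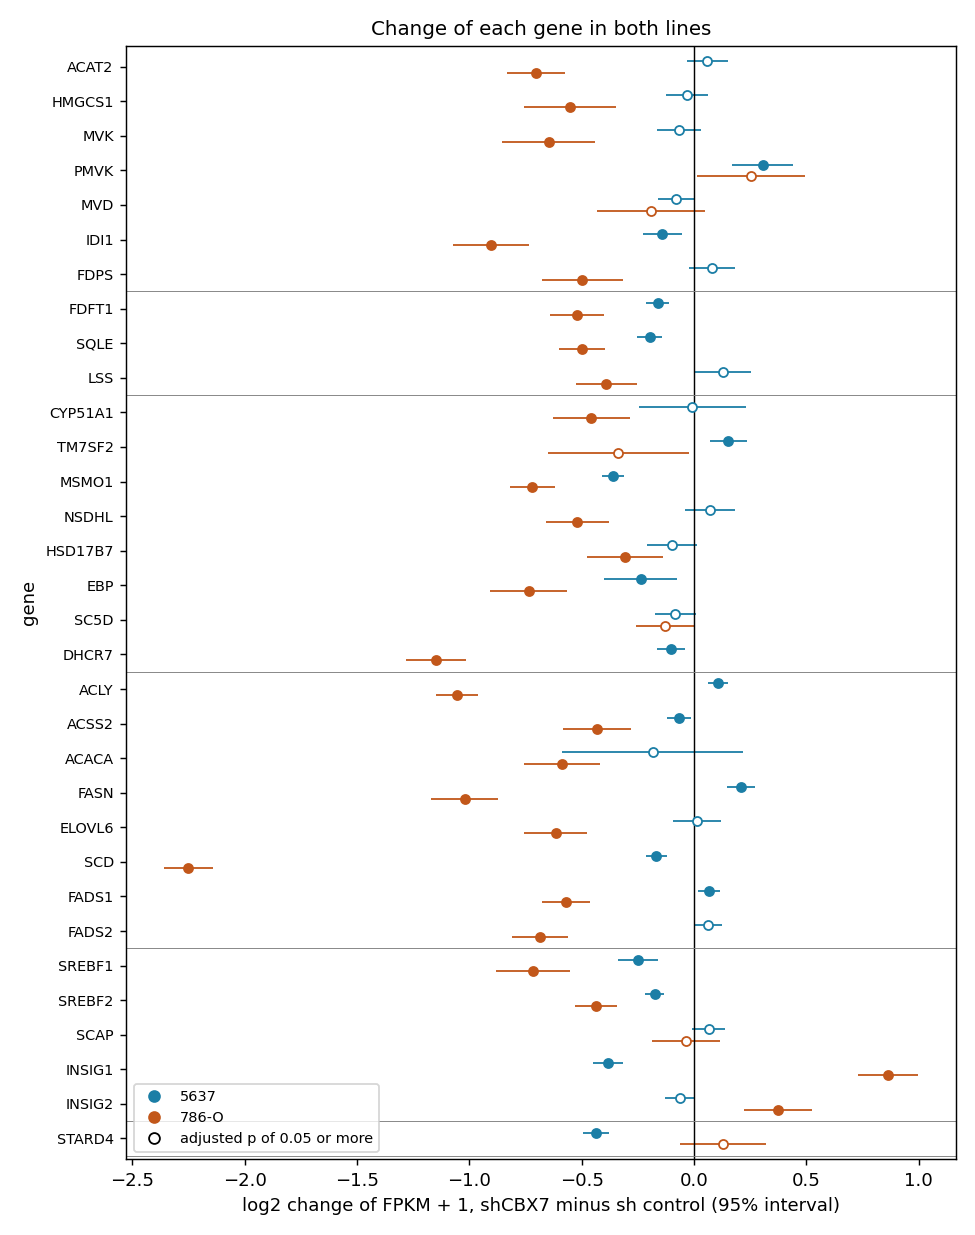
Log2 change of FPKM + 1, shCBX7 minus sh control (horizontal axis, with 95% intervals), of the 32 genes (vertical axis) in 5637 (blue) and 786-O (orange), with open points where limma's adjusted p is 0.05 or more. The 786-O points of the enzymes lie left of the 5637 points, with PMVK and SC5D close together, and those of INSIG1, INSIG2 and STARD4 lie right of them.

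Whether the response differed between the lines was tested directly, as the change in 786-O minus the change in 5637 over all 12 libraries. The tables of the lines were normalized separately, so each change was formed within its own table. The difference passed for 26 of the 32 genes, 23 with the lower change in 786-O and 3 with the higher, where 29.0% and 24.3% of 12777 tested genes did so. SCD differed most on the lower side (-2.08, SE 0.046, limma adjusted p = 9.72e-11), followed by FASN (-1.23, limma adjusted p = 5.60e-08) and ACLY (-1.16, limma adjusted p = 1.35e-09). On the higher side stood INSIG1 (1.25, SE 0.064, limma adjusted p = 3.77e-08), STARD4 (0.57) and INSIG2 (0.44). The difference did not pass for PMVK, MVD, HSD17B7, SC5D, SCAP and ACACA. Its size hung on the processing for several genes, among them MSMO1 (-0.36, but -0.18 with quantile normalization) and SREBF1 (-0.47, but -0.30 with quantile normalization). For TM7SF2 it was -0.49, but -0.84 with a pseudocount of 0.1 and -0.93 with voom. LSS (-0.52) reached -0.73 and CYP51A1 (-0.45) reached -0.66 in an alternative. Each of these genes stayed called. HSD17B7 passed without 5637 control library 1 or without 786-O control or shCBX7 library 2, and ACACA without 5637 control library 1. Read across both lines, 10 genes fell in each, 3 rose in 5637 and fell in 786-O, and INSIG1 fell in 5637 and rose in 786-O. The 10 were IDI1, FDFT1, SQLE, MSMO1, EBP, DHCR7, SREBF1, SREBF2, SCD and ACSS2, and the 3 were FASN, ACLY and FADS1. Of these, IDI1, EBP, DHCR7, ACSS2 and FADS1 lost their 5637 call in at least 1 alternative. Over all tested genes, 20.2% fell in 5637 and 26.2% in 786-O. The shares of all genes that fell in both lines or went opposite ways were not computed, so these counts describe named genes only. The difference of CBX7 itself between the lines was -0.22 (SE 0.075, limma adjusted p = 0.0268), a deeper fall in 786-O that did not pass in 6 of 19 alternatives. It was -0.41 with a pseudocount of 0.1 and -0.46 with voom. The part of CBX7 in the other differences was not tested.

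**Figure D4:**
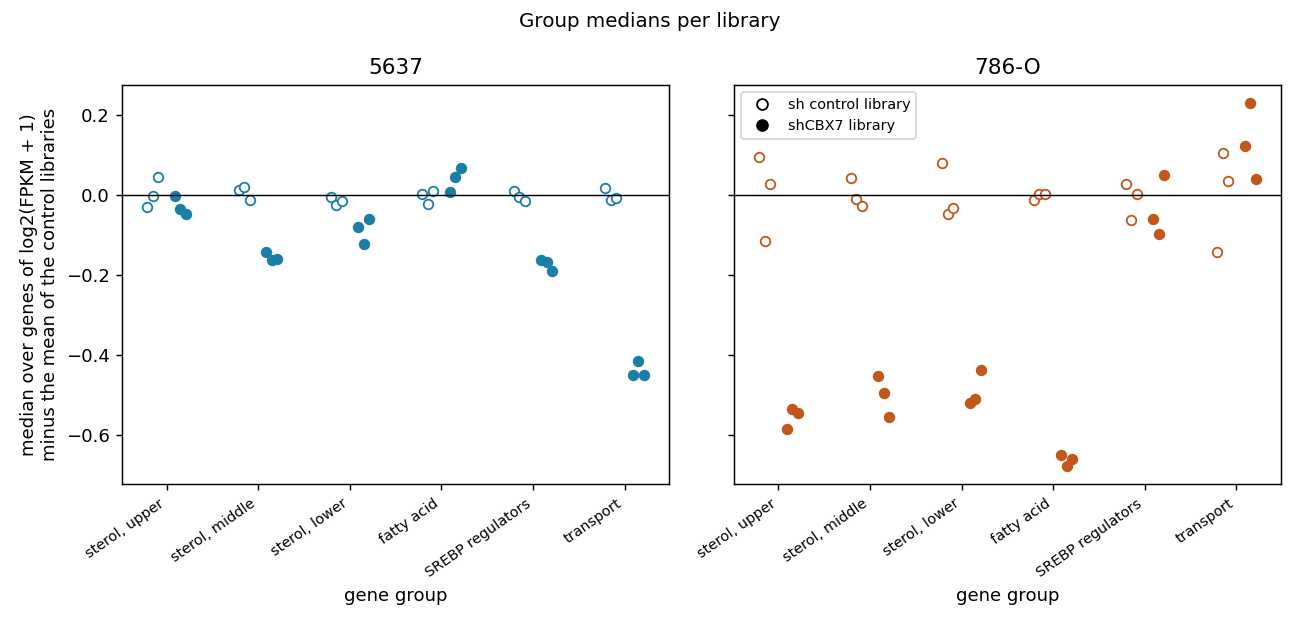
Median over the genes of a group of log2(FPKM + 1) minus the mean of the control libraries (vertical axis), 1 point per library, for the 3 stretches of the sterol branch, the fatty acid branch, the SREBP regulators and STARD4 (transport), in 5637 (left) and 786-O (right). In 786-O the filled shCBX7 points of the sterol stretches and the fatty acid branch lie far below the open control points, while in 5637 the fatty acid points lie at or just above 0 and those of the regulators, STARD4 and the last 2 sterol stretches lie below the controls.

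Summed over genes, the FPKM of the 8 fatty acid genes went from 280.5 ± 2.26 in 786-O controls to 113.6 ± 1.82 after silencing (SD, n = 3), 40.5% of the control level. Most of that sum was SCD (112 to 22.7 FPKM) and ACLY (87.7 to 41.7 FPKM), so it mainly follows these genes. The 18 sterol enzymes went from 474.8 ± 16.0 to 320.4 ± 2.99 FPKM, or 67.5%. The 5 regulators went up, from 106.2 ± 3.44 to 131.0 ± 2.74 FPKM, since the rise of INSIG1 outweighed the falls of the SREBF genes in FPKM. In 5637 the sterol sum fell to 93.0% (267.5 ± 1.68 to 248.6 ± 0.884 FPKM) and the regulator sum to 87.8% (113.7 ± 0.812 to 99.9 ± 1.65 FPKM). The fatty acid sum there stood at 103% of the control level (236.2 ± 2.23 to 242.5 ± 1.92 FPKM). Per length, SCD had the highest control level of the 32 genes in both lines, 70.7 FPKM in 5637 and 112 FPKM in 786-O, and the lowest were LSS in 5637 and TM7SF2 in 786-O.

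Other genes of lipid metabolism did not share a single direction. Of 61 such genes, listed in 6 groups, 58 were tested in 786-O, where 21 fell (36.2%, against 26.2% of all tested genes) and 13 rose (22.4%, against 24.7%). In 5637, 60 were tested, of which 13 fell (21.7%, against 20.2%) and 17 rose (28.3%, against 24.4%). These shares are near those over all tested genes, apart from the falls in 786-O, and the counts per group below rest on few genes and describe named genes only. Among genes that cleave SREBP or degrade its sensors, 2 of 7 rose and 1 fell in 786-O, and 3 rose in 5637. The SREBP-cleaving protease MBTPS1 rose in both lines, from 9.25 ± 0.58 to 12.1 ± 0.30 FPKM in 786-O and from 12.4 ± 0.42 to 13.8 ± 0.28 FPKM in 5637 (SD, n = 3). The other such protease, MBTPS2, was lower after silencing in 786-O (3.79 ± 0.078 to 3.18 ± 0.23 FPKM). In 5637 MBTPS2 was higher (6.36 ± 0.21 to 7.12 ± 0.25 FPKM). ERLIN1 and ERLIN2 are endoplasmic reticulum proteins that take part in turnover of INSIG-bound proteins. They gave the other rises of smallest p, ERLIN1 in 786-O (12.3 to 16.0 FPKM) and ERLIN2 in 5637 (4.61 to 6.25 FPKM). In sterol uptake, transport and export, 4 of 12 tested genes rose and 4 fell in 786-O, and 3 of 14 rose and 6 fell in 5637. TMEM97, a sterol-regulated membrane protein, fell in 786-O from 16.3 ± 0.069 to 8.44 ± 0.074 FPKM (-0.87, limma adjusted p = 6.00e-06). LIPA, the lysosomal acid lipase that frees cholesterol from its esters, rose there from 19.8 ± 0.58 to 36.9 ± 1.26 FPKM (0.86, limma adjusted p = 1.01e-05). In 5637 the smallest p in that group belonged to MYLIP, a ligase induced by sterols (10.1 to 7.88 FPKM), and the exporter ABCG1 (10.4 to 7.85 FPKM), which both fell.

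Of 9 genes in isoprenoid side branches, 3 rose and none fell in 5637, where 24.4% and 20.2% of all tested genes did so, and 1 rose and 4 fell in 786-O, where 24.7% and 26.2% did so. Those with the smallest p were NUS1 (20.9 to 24.9 FPKM) and GGPS1 (4.49 to 5.09 FPKM) in 5637, and COQ2 of ubiquinone synthesis (14.95 to 11.8 FPKM) and DHDDS of dolichol synthesis (7.84 to 6.04 FPKM) in 786-O. Of 18 further genes of fatty acid synthesis, elongation and activation, 8 fell and 4 rose in 786-O, and 4 fell and 6 rose in 5637. TECR, the reductase that ends each elongation cycle, fell in both lines, from 42.5 ± 4.07 to 18.5 ± 0.68 FPKM in 786-O (-1.15, limma adjusted p = 1.79e-05) and from 19.8 ± 0.32 to 16.6 ± 0.25 FPKM in 5637 (-0.24, limma adjusted p = 2.85e-04). The elongase ELOVL5 fell in 786-O from 62.3 ± 1.04 to 40.5 ± 0.56 FPKM, and the acyl-CoA synthetase ACSL5 rose in 5637 from 8.59 to 10.8 FPKM. In glycerolipid synthesis 1 of 5 genes rose and 1 fell in 5637, and 2 fell in 786-O. GPAM, which starts that route, rose in 5637 (2.72 to 3.65 FPKM) and fell in 786-O (1.32 to 0.963 FPKM), while DGAT1, a triglyceride synthase, fell in 5637 (15.4 to 14.3 FPKM) and the phosphatase LPIN1 in 786-O (2.53 to 1.90 FPKM). Genes of fatty acid oxidation rose in 2 and fell in 2 of 7 in 786-O, with CPT1A, the gate of mitochondrial oxidation, at 1.47 ± 0.15 FPKM in controls and 2.37 ± 0.26 FPKM after silencing (0.45, limma adjusted p = 0.00321), and HADHB at 16.7 and 21.8 FPKM. In 5637, 1 of the 7 rose and 2 fell, ACADVL (58.3 to 54.2 FPKM) and ETFDH (5.60 to 4.58 FPKM).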

How the data were processed

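Gene expression was measured by RNA-seq in 12 libraries, 3 per arm and line, from NEBNext Ultra Directional kits, as the labels' protocols give. Per the file headers, the deposited values are FPKM, in a table of its own for each line. The submitters' processing notes name the build mm10 although the samples are human. Aligner, counter and strand setting: not given in the sources used here. All 32 genes have the positions of GENCODE release 29 (GRCh38) in the 786-O table. Libraries were grouped by title and cell line and genotype labels. The control columns of 5637 could be tied to their arm but not to a single sample. Of the 5637 control titles, 2 carry another number than 5637, and the cell line label was followed.

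Genes averaging 0.5 FPKM or more over the fitted libraries were tested on log2(FPKM + 1) with limma 3.58.1 (R 4.3.3, mean-variance trend, two-sided), Benjamini-Hochberg adjusted over all tested genes and called under 0.05. All 32 genes passed that filter in each line. The interaction term gave the difference between lines, over symbols found once in both tables. Low FPKM are whole multiples of 1 read (tolerance 0.01). Reads were recovered for 93.9% of genes in 5637, with lengths from the other table, and 100.0% in 786-O. In 5637 they were whole for 27 of the 32 genes. They served for depth and for voom as an alternative. The fit was tested on simulated data. Intervals are 95% limma intervals. The members, the lists and the branches were chosen with earlier results of these data known. From each list of other lipid genes, up to 2 called genes with the smallest p per line are named, and MBTPS2 is named beside MBTPS1. Promoter stretches were cut where the gene's GENCODE interval begins, and the 4 shown were chosen after the values were seen. Alternatives were no filter, a mean of at least 1 FPKM, a pseudocount of 0.1, quantile normalization, median centring, no trend, voom, each library left out and, in 786-O, a replicate block.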

Additional observations from a re-analysis of the deposited data

Results flagged for a closer look

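For 26 of the 32 genes the change after silencing of CBX7 differed between the lines by limma's interaction test, and the values below are the 786-O change minus the 5637 change of log2(FPKM + 1). In the fatty acid branch this difference was -2.08 for SCD, -1.23 for FASN, -1.16 for ACLY, -0.75 for FADS2, -0.64 for FADS1, -0.63 for ELOVL6 and -0.37 for ACSS2. FASN, ACLY and FADS1 rose in 5637 and fell in 786-O, although the call of FADS1 in 5637 was lost in 8 of 13 alternatives.

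Among sterol enzymes up to farnesyl diphosphate the difference was -0.76 for ACAT2, -0.76 for IDI1, -0.58 for MVK, -0.58 for FDPS and -0.52 for HMGCS1. It was -0.36 for FDFT1, -0.30 for SQLE and -0.52 for LSS. In the stretch from lanosterol to cholesterol it was -1.05 for DHCR7, -0.59 for NSDHL, -0.50 for EBP, -0.49 for TM7SF2, -0.45 for CYP51A1 and -0.36 for MSMO1. Of these, TM7SF2 rose in 5637 and did not pass in 786-O.

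For the regulators the difference was 1.25 for INSIG1, 0.44 for INSIG2, -0.47 for SREBF1 and -0.26 for SREBF2, and for STARD4 it was 0.57. INSIG1 was the gene that fell in 5637 and rose in 786-O, with arms that did not overlap in either line.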

How the results depend on the processing

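All 26 calls among the 32 genes in 786-O and all 26 for the difference between lines held in every alternative that gave a value, while 5 of 17 in 5637 (IDI1, EBP, DHCR7, ACSS2 and FADS1) were lost in at least 1. With each library left out in turn, genes called numbered 4678 to 5123 in 5637, 5704 to 6734 in 786-O and 6241 to 7126 for the difference, and members called 13 to 17, 26 to 27 and 26 to 28. The sterol branch in 5637 then had 2 to 3 higher and 4 to 6 lower (median -0.08 to -0.06), the fatty acid branch 2 to 3 higher and 1 to 2 lower (0.02 to 0.06). In 786-O the sterol branch had 0 to 1 higher and 14 to 15 lower, the fatty acid median ran from -0.68 to -0.63, and the regulator median from -0.08 to 0.02. The sterol median in 5637 was -0.0913 with a pseudocount of 0.1 and -0.0941 with voom, which also gave 0.0686 for the fatty acid branch and -0.24 for the regulators over the genes with whole reads. Without the trend, and with voom, 1 fatty acid gene was lower in 5637. The fatty acid median in 786-O was -0.73 with a pseudocount of 0.1, -0.63 with quantile normalization and -0.74 with voom, which called 1 sterol gene higher, PMVK. The cause was not tested. Signs turned for values that did not pass. In 5637 these were ELOVL6 with quantile normalization (-0.0033), median centring (-0.0025) and libraries left out (-0.0176 to 0.0627, below 0 without control 2, shCBX7 2 or shCBX7 3), HMGCS1 (-0.0697 to 0.0056, above 0 without control 1) and CYP51A1 (-0.0943 to 0.1063, above 0 without control 3 or shCBX7 1). In 786-O it was SCAP (-0.0789 to 0.0160, above 0 without control 1). Between lines they were SC5D with quantile normalization (0.0027), MVD (-0.1888 to 0.0071, above 0 without 786-O control 1) and PMVK (-0.1252 to 0.0547, above 0 without 786-O shCBX7 1).

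With the replicate block in 786-O, 6723 genes and 26 members were called, against 6736 and 26. Same-numbered libraries there deviated together weakly (0.083, 0.077 and 0.057), and each correlated best with its own number. Pairs of unlike number ran from -0.076 to 0.006. No block was fitted in 5637, since the titles of its controls all carry the number 1 and its numbered control columns could not be tied to single samples. Over all genes in 5637, 3094 calls were higher and 2557 lower; median centring gave 2767 and 2885, quantile normalization 2815 and 2840. Precision is limited by 3 libraries per arm, and for TM7SF2 in 786-O and LSS in 5637 by reads. CYP51A1 in 5637 was low too, at 1.30 to 2.04 FPKM over its libraries, and its reads were not recovered.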
